A study of Homo sapiens with 6 samples.

Results

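The p90 ribosomal S6 kinases (RSK) and the mitogen- and stress-activated kinases (MSK) are encoded by 6 genes, RPS6KA1 to RPS6KA6, and their transcripts were followed in A549 cells kept with or without glucose. The members were chosen by their official gene symbols, and all 6 were found among the 19240 genes of the table, 4 of them RSK and 2 MSK genes. The family was picked out with the difference between the glucose groups already known. Its values in that contrast, and its calls in the fit over all genes, are therefore a description and no test of the members. A549 is an established line of human lung carcinoma cells. One group was cultured with 25 mM glucose and the other in medium lacking it, both for 48 h before the RNA was taken, with 3 libraries per group. No other agent or genetic change is named for either group. The labels do not say whether replicates were grown apart, so the spread between them may be technical.

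RSK proteins sit at the end of the RAS, RAF, MEK and ERK cascade. ERK docks on the kinase and switches on its C-terminal kinase domain, PDPK1 then phosphorylates the N-terminal kinase domain, and that domain phosphorylates the substrates, among them ribosomal protein S6 and regulators of translation, survival and the cell cycle. MSK proteins have the same arrangement of tandem kinase domains, are activated by ERK or by p38, and act in the nucleus on CREB and histone H3. Gene and protein numbers do not run in parallel: RPS6KA1 encodes RSK1, RPS6KA2 encodes RSK3, RPS6KA3 encodes RSK2, RPS6KA6 encodes RSK4, RPS6KA5 encodes MSK1 and RPS6KA4 encodes MSK2.

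Reads came from the 3′ ends of transcripts, so a transcript gives reads from its end whatever its length, and levels are given as CPM, counts scaled to a common library size, with no division by length. Gene totals ran from 6701004 to 14259943 counts, so that 1 CPM stood for 7.08 to 14.2 counts. The A549 markers listed, which include the keratins KRT8 and KRT18 and the aldo-keto reductase AKR1B10, summed to 12425 to 13713 CPM with glucose. Without glucose they summed to 8511 to 9420 CPM. Of the 10 markers, 4 were lower at an edgeR adjusted p under 0.05 and 0 higher, and the markers just named were among those 4. Over all 11886 genes tested, 10.7% were lower and 11.6% higher by the same test. For NQO1 and KRT19, every library without glucose also lay below every library with it, but neither passed (edgeR adjusted p = 0.0535 and 0.125). Their means fell from 2564 to 1790 CPM and from 34.8 to 24.6 CPM. AKR1C1 went from 91.35 to 73.1 CPM, with groups that overlapped. The rest were low or did not fall. Means with and without glucose were 4.10 and 3.09 CPM for EPCAM, 5.93 and 7.87 CPM for CDH1, and 3279 and 3771 CPM for ALDH1A1. CDKN2A, a gene deleted in this line, had 0 counts. Markers of other cell types summed to 27.1 to 29.5 CPM with glucose and 30.5 to 43.6 CPM without it, and 3 of the 9 (CD3E, VWF and DCN) were at 0 throughout. Most of that sum was CD68, a lysosomal protein, which rose from 15.1 to 31.0 CPM (edgeR adjusted p = 0.00605), and COL1A1, a collagen chain, which fell from 12.5 to 4.87 CPM (adjusted p = 0.00263). In each library, 2.58% to 6.43% of 11152 genes with a mean of 20 or more counts lay at least 1.5 times above both other libraries of the group, and 2.54% to 10.6% lay as far below both. The highest share, 10.6%, was in replicate 1 with glucose. Their part in the family's values was not tested.

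RPS6KA2 (Entrez 6196), the gene of RSK3, was all but silent with glucose and readily counted without it. Replicates 1 and 2 with glucose had 0 counts and replicate 3 had 2. Replicates 1, 2 and 3 without glucose had 66, 113 and 108 counts. A count of 0 allows a level of up to 3 counts, which is 0.424 CPM in replicate 1 and 0.288 CPM in replicate 2. The mean was 0.0469 ± 0.0812 CPM with glucose and 7.62 ± 1.23 CPM without it (SD, n = 3 per group), and the groups lay far apart. In bulk RNA, a change in the number of cells that express a gene and a change in RNA per cell cannot be told apart. Relative to the scaled library totals, 287 counts without glucose stood against 2 with it, a ratio of 122 with an exact 95% Poisson interval of 33.6 to 1015 that covers counting error only. Both counts with glucose came from replicate 3, and with that library left out, 0 counts stood against 287 and the lower limit of the 95% interval of the ratio was 36.3. The fitted log2 fold change was 6.71 ± 0.63 (SE) and 9.38 with that library left out. It depends on the prior count and is no bound. Of the 11886 genes tested, 4 had a higher fitted value. RPS6KA2 passed the filter on low counts through the libraries without glucose alone, so that it had to differ.

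Even without glucose RPS6KA2 was a low transcript. Its level of 6.26 to 8.64 CPM lay just above RPS6KA1, which encodes the best-studied RSK and was at 3.51 to 6.12 CPM in the same libraries. The ratio of RPS6KA2 to RPS6KA1 was 0, 0 and 0.0211 with glucose and 1.78, 1.41 and 1.77 without it, for replicates 1, 2 and 3. The rank of the pair was thus opposite in every library of the 2 groups.

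The gene has 3 listed transcription starts in RefSeq (GRCh38.p14), and counts from 3′ ends do not say which of them was used. The 250 bases before each start are shown because this gene and RPS6KA6 are the members with the largest positive fold changes, and the windows differ between starts in base composition and short motifs. Capitals mark the CCAAT box (CCAAT, written ATTGG where it lies on the other strand) and the half-site of the cyclic AMP response element, TGACG, to which CREB and ATF factors bind. All sequences run 5′ to 3′ on the gene's strand. The read counts were made on hg19, so these positions belong to the RefSeq build and not to the count table.
RPS6KA2 start 1, chr6:166862526-166862775, minus strand: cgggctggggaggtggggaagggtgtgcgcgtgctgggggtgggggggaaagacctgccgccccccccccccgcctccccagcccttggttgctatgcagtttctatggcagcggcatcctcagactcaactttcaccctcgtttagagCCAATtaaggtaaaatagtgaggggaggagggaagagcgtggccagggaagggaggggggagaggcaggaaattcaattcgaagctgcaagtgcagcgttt
RPS6KA2 start 2, chr6:166627252-166627501, minus strand: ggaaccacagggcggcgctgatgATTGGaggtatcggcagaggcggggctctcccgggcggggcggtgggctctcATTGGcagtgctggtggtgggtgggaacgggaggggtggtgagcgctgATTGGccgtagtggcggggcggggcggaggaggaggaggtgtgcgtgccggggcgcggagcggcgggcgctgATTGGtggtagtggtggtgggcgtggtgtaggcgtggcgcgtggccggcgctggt
RPS6KA2 start 3, chr6:166544691-166544940, minus strand: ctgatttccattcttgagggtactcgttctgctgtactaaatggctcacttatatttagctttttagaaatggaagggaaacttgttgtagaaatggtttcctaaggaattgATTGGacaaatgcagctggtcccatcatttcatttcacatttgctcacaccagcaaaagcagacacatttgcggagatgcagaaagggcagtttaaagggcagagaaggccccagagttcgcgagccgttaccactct
RPS6KA6, chrX:84188200-84188449, minus strand: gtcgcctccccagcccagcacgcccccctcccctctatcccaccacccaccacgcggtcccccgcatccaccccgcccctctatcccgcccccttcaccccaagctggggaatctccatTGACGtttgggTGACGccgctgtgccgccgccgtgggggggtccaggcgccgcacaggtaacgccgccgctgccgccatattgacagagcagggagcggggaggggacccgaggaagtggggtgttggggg

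The window of start 2 held 4 CCAAT boxes, at 227, 175, 127 and 55 bases before the start, and 5 GC boxes (GGGCGG, not capitalized). A GC box was present in 42.6% of all windows and before at least 1 start of every member. At least 4 CCAAT boxes were found in 0.874% of 35116 windows of the same length, and at least 1 in 32%. Starts 1 and 3 had 1 CCAAT box each, and their GC contents were 61.2% and 43.6%, against 72.4% for start 2. The RPS6KA6 window had no CCAAT box and 2 TGACG half-sites, 131 and 120 bases before the start. At least 2 such half-sites were present in 4.76% of all windows and at least 1 in 21.2%. The cutoffs of 4 and 2 were taken from the windows shown, and all windows were counted whatever their GC content. These shares are thus no measure of how unusual the windows are. The same motifs stood before starts of members with other values: start 1 of RPS6KA5 had 3 CCAAT boxes and 1 half-site, start 1 of RPS6KA1 had 1 of each, and the windows of RPS6KA3 and RPS6KA4 had neither. Over the 11 windows of the 6 genes, both strands were also searched for the full response element TGACGTCA (1.65% of all windows), which contains TGACG, for the amino acid response element TGATGNAA (3.14%) and for the endoplasmic reticulum stress element (0.0740%), a CCAAT box followed after 9 bases by CCACG. None of these was in any of the 11 windows. A match is a run of letters and not a shown binding site, and the lack of one concerns only these letters in these windows.

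RPS6KA6 (Entrez 27330), the gene of RSK4, a member known for kinase activity that depends little on growth factors, was at 4.24, 3.07 and 6.61 CPM in replicates 1, 2 and 3 with glucose. Without glucose it was at 8.34, 9.64 and 12.2 CPM. Every library without glucose lay above every library with it, although replicate 3 with glucose came near. The means were 4.64 ± 1.80 and 10.1 ± 1.98 CPM (SD, n = 3 per group), and the log2 fold change was 1.10 ± 0.32 (SE). Leaving out single libraries gave 0.87 to 1.47.

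RPS6KA3 (Entrez 6197), which encodes RSK2 and is mutated in Coffin-Lowry syndrome, was the most abundant member throughout. It stood at 71.2, 85.4 and 75.6 CPM with glucose and at 81.5, 92.0 and 191 CPM without it, for replicates 1, 2 and 3. Replicate 3 without glucose was far above the rest, and the other libraries of the groups overlapped. The log2 fold change was 0.65 ± 0.29 (SE) with all libraries and 0.16 once replicate 3 lacking glucose was omitted. Among the libraries without glucose, that one was also the highest for RPS6KA5 and RPS6KA6, at 12.4 and 12.2 CPM. Of the genes looked at, 2.58% lay at least 1.5 times above both other libraries of the group there.

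RPS6KA1 (Entrez 6195), the gene of RSK1, was lower without glucose in every library. It had 9.18, 6.34 and 6.68 CPM with glucose and 3.51, 6.12 and 4.49 CPM without it. The groups did not overlap, but the gap between replicate 2 with glucose and replicate 2 without it was small. The log2 fold change was −0.64 ± 0.31 (SE), from 226 counts with glucose and 178 without, and it did not pass the threshold over all genes.

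**Figure D1:**
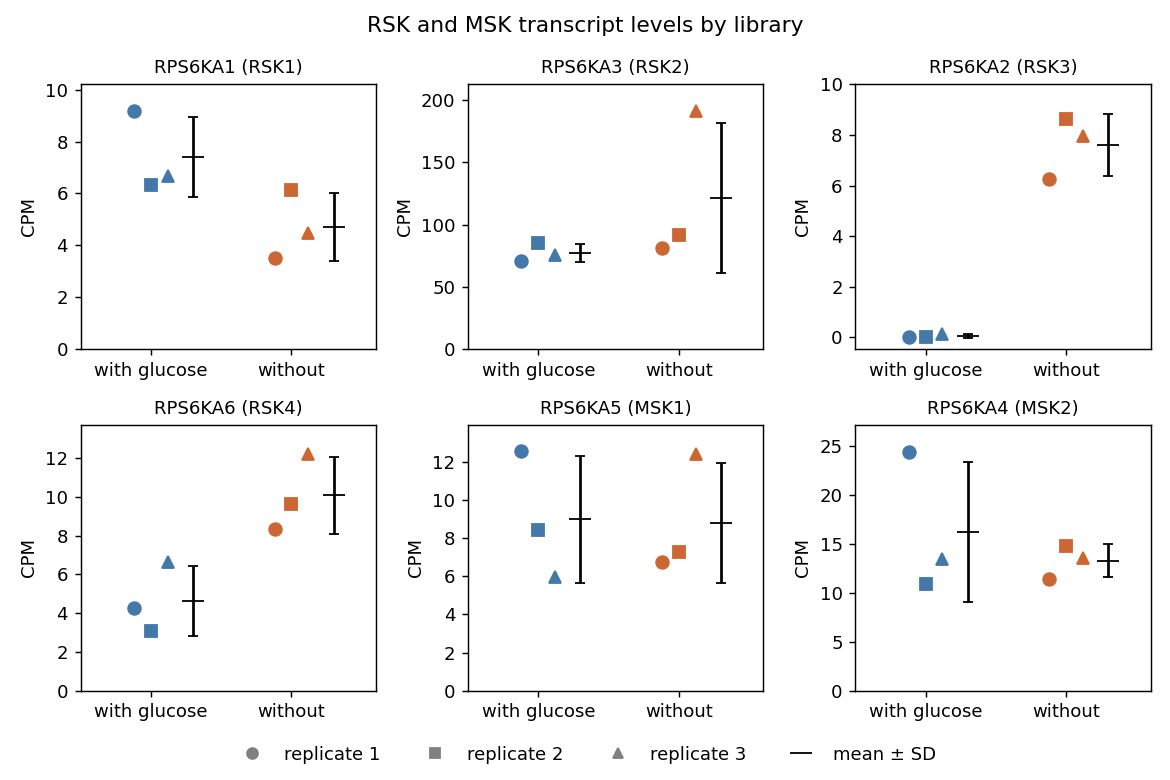
Level of each of the 6 genes in CPM (linear axes, a scale of its own per gene) in every library, with the group mean ± SD in black (n = 3 per group). RPS6KA2 sits at 0 to 0.141 CPM with glucose and at 6.26 to 8.64 CPM without it, and a single library, replicate 3, carries the high RPS6KA3 value of 191 CPM.

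The MSK genes did not separate the groups. RPS6KA4 (Entrez 8986), the gene of MSK2, had 24.4, 10.9 and 13.5 CPM with glucose and 11.5, 14.8 and 13.6 CPM without it. Replicate 1 with glucose was the high one, and the remaining values interleaved. Its log2 fold change was −0.28 ± 0.29 (SE) and 0.12 without that library. RPS6KA5 (Entrez 9252), the gene of MSK1, had 12.6, 8.45 and 5.98 CPM with glucose and 6.73, 7.27 and 12.4 CPM without it, a log2 fold change of −0.01 ± 0.33. Its sign changed on leaving out replicate 1 with glucose (0.30) or replicate 1 or 2 without it (0.15 and 0.11). RPS6KA5 overlaps DGLUCY in RefSeq, and the strand setting of the counting is not given in the sources used here, so reads of that pair may not have been kept apart.

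By the edgeR quasi-likelihood test over the whole table with Benjamini-Hochberg adjustment, 2 of the 6 members (RPS6KA2 and RPS6KA6) were among the genes with an adjusted p under 0.05, where 22.3% of all 11886 genes tested were called (11.6% higher and 10.7% lower without glucose). No member was called lower by edgeR or by DESeq2, and at an unadjusted p under 0.05 the number was also 0. Groups that did not overlap were found for 3 of the 6 members, 2 higher and 1 lower, where 40.4% of all genes had such groups, 21% higher and 19.4% lower. The median log2 fold change was 0.32 over the 6 members and 0.02 over all genes tested. All 6 passed the filter on low counts. RPS6KA2 did so through the libraries without glucose alone, so its call and its lack of overlap were fixed beforehand and test nothing. RPS6KA6 was not called when replicate 1 or 2 with glucose or replicate 2 or 3 without it was left out, which left 1 member called in each case.

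**Figure D2:**
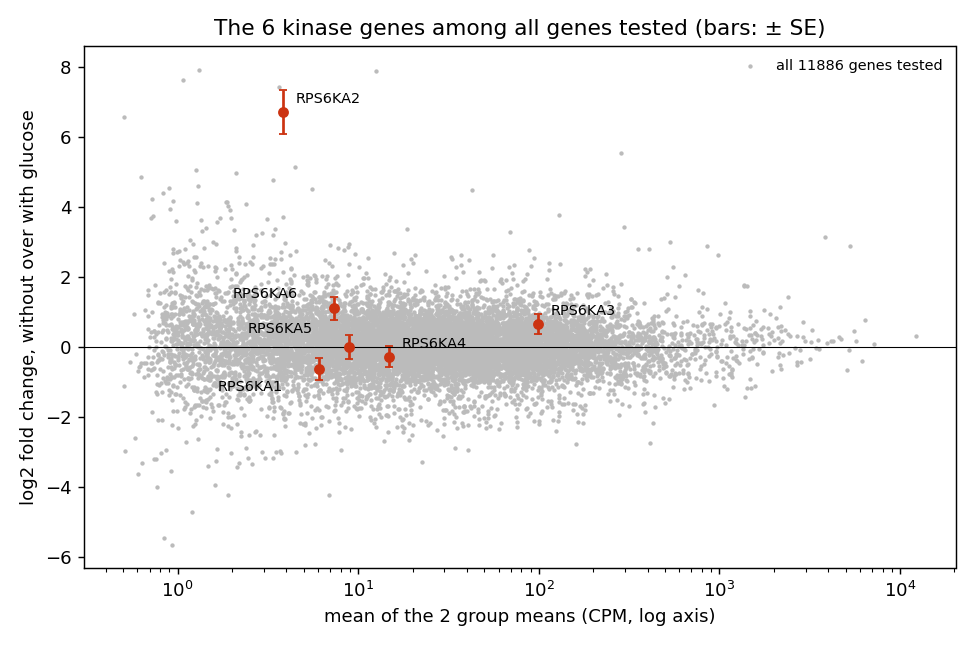
Log2 fold change (without over with glucose) against mean level (CPM, log axis) for the 11886 genes tested in grey, with the 6 kinase genes in red and their SE as bars. RPS6KA2 lies near the upper edge of the cloud at 6.71, RPS6KA6 at 1.10, and the other 4 between −0.64 and 0.65.

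Summed over the 6 genes, the libraries with glucose held 122, 114 and 109 CPM and those without it 118, 139 and 241 CPM. The sums overlapped, and leaving RPS6KA3 out gave 50.4, 28.8 and 32.9 CPM against 36.3, 46.5 and 50.7 CPM. In replicate 3 without glucose RPS6KA3 made up 191 of the 241 CPM. The 4 RSK genes together had 84.6, 94.8 and 89.0 CPM with glucose and 99.6, 116 and 215 CPM without it. Those groups did not overlap, in a sum that includes RPS6KA2. The 2 MSK genes together had 25.3 ± 10.1 CPM with glucose and 22.1 ± 3.93 CPM without it (SD, n = 3 per group).

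Within the sum of the 6 genes RPS6KA3 made up most of the reads in each library, 58.5% to 74.8% with glucose and 66.4% to 79.0% without it. Its reads exceeded those of the next most abundant member 2.91 to 7.80 times with glucose and 6.20 to 14.0 times without it. RPS6KA2 took 0%, 0% and 0.130% of the family's reads with glucose and 5.31%, 6.24% and 3.30% without it. RPS6KA1 took 7.55%, 5.55% and 6.16% with glucose and 2.98%, 4.42% and 1.86% without it, and again the groups did not overlap. The other 4 shares overlapped between the groups. RPS6KA6 went from 4.09% ± 1.78 to 6.37% ± 1.13, RPS6KA4 from 14.0% ± 5.43 to 8.70% ± 2.69 and RPS6KA5 from 7.75% ± 2.43 to 5.37% ± 0.299 (SD, n = 3 per group). Shares are tied to each other by their sum, and the RPS6KA3 value of replicate 3 without glucose lowers all other shares of that library. Among the 4 RSK genes alone, RPS6KA3 took 86.4% ± 3.22 with glucose and 83.1% ± 4.88 without it, and RPS6KA2 took 0.0527% ± 0.0912 and 5.80% ± 1.91.

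**Figure D3:**
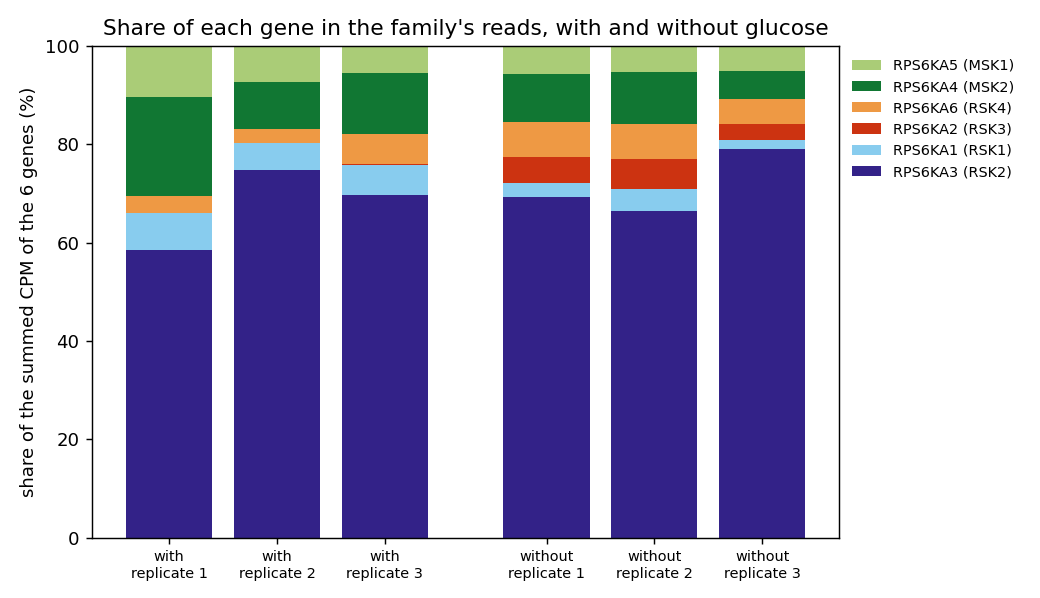
Share (%) of each of the 6 genes in their summed CPM, 1 bar per library. RPS6KA3 fills 58.5% to 79.0% of every bar, and the red band of RPS6KA2 is visible in the 3 libraries without glucose only, at 3.30% to 6.24%.

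With glucose the order of the mean levels was RPS6KA3, RPS6KA4, RPS6KA5, RPS6KA1, RPS6KA6 and RPS6KA2. Apart from the first and the last step, neighbors in that order overlapped between libraries. Without glucose the order was RPS6KA3, RPS6KA4, RPS6KA6, RPS6KA5, RPS6KA2 and RPS6KA1. There RPS6KA3 stood clear of RPS6KA4, and RPS6KA2 (lowest library 6.26 CPM) narrowly clear of RPS6KA1 (highest library 6.12 CPM), while the neighbors between them overlapped. Comparing genes in this way assumes that their 3′ ends are captured and aligned alike. In the protein-coding transcripts of GENCODE 29, no stretch of 50 bases was shared between any members. Stretches shared with other genes made up 0.478% of those in the last 500 bases of RPS6KA2 transcripts and 3.32% for RPS6KA3, and 0% for the other 4 genes.

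The genes next to RPS6KA2 on the chromosome in RefSeq order were looked at after its values were seen. MPC1, which encodes a subunit of the mitochondrial pyruvate carrier, went from 128 to 324 counts with a log2 fold change of 1.09 ± 0.31 (SE, edgeR quasi-likelihood adjusted p = 0.0241). RNASET2, a lysosomal ribonuclease on the other side, had 330 and 337 counts and a log2 fold change of −0.19 ± 0.23 (adjusted p = 0.582). Over all genes tested, 11.6% were called higher. Beside the other members, the neighbors called were HMGN2, next to RPS6KA1, and CNKSR2, next to RPS6KA3. They were lower, with log2 fold changes of −0.93 ± 0.20 and −1.17 ± 0.22 (adjusted p = 0.00576 and 0.00295). Several non-coding genes and RAMACL overlap RPS6KA2 in that annotation and have no row of their own here. As the strand setting of the counting is not given, reads from them may have been counted as RPS6KA2.

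Likeness of pattern was measured as the root mean square difference in log2 CPM over the 6 libraries after each gene was centred on its own mean, among 10000 genes with a mean of 50 or more counts. NIBAN1 (0.904) and HSPA6 (0.944) came closest to RPS6KA2. Both differences were far larger than the 0.0530 to 0.182 found for the other members, so neither gene is a close match. RPS6KA2, with 289 counts over all libraries, fell short of that mean itself, so genes as low as it were not searched. Its log2 values with glucose rest on the prior count of 0.5. NIBAN1, a stress-induced gene, was at 9.89 to 13.3 CPM with glucose and 541.5 to 574 CPM without it. HSPA6, an inducible heat-shock chaperone, was at 0.0703 to 0.141 CPM with glucose and 15.1 to 30.3 CPM without it. KCNG1 (0.165) and IQCK (0.182) were nearest to RPS6KA6, ATP1B1 (0.143) and AK3 (0.147) to RPS6KA3, and DGKZ (0.0530) and BSDC1 (0.0542) to RPS6KA1. For RPS6KA4 they were FAM193B (0.0706) and TEX264 (0.0801), and for RPS6KA5 CGREF1 (0.122) and IL15 (0.128). ATP1B1 and AK3 shared the high value of replicate 3 without glucose, with 1457 and 190 CPM there against 828 to 943 and 104 to 125 CPM in the other libraries without glucose. Being near in 6 libraries is a description of these libraries.

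The rest of the pathway was read from 7 lists of activators, related kinases and substrates. Of their 70 tested genes, 6 rose and 10 fell, which is 22.9% called, and their median log2 fold change was 0.03. That share is near the 22.3% of all genes. Taken singly, the lists ran from 0% to 37.5% called. The other S6 kinases did not pass in any of 3 tested cases. RPS6KB2, which encodes the S6 kinase S6K2, was at 18.1 to 27.5 CPM with glucose and 13.0 to 16.8 CPM without it (log2 fold change −0.62 ± 0.23, edgeR adjusted p = 0.0721). RPS6KB1, the gene of S6K1, and RPS6KC1 had log2 fold changes of 0.34 ± 0.30 and 0.07 ± 0.32. RPS6KL1 was too low to be tested. DESeq2 called 0 of them as well, and 1 (RPS6KB2) had an unadjusted edgeR p under 0.05.

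Upstream of RSK, 1 of 13 genes of the ERK cascade fell and 12 did not pass (7.69% called, against 22.3% of all genes). The one that fell was HRAS, a RAS GTPase, from 75.4, 67.1 and 70.5 CPM with glucose to 28.1, 42.8 and 42.8 CPM without it (log2 fold change −0.90 ± 0.22, edgeR adjusted p = 0.0110). BRAF, a kinase that RAS activates, was at 1.45 ± 0.59 on the log2 scale, short of the threshold (edgeR adjusted p = 0.0943). It was low, with 1, 22 and 21 counts with glucose and 55, 36 and 40 without it. Leaving out replicate 1 with glucose gave 1.02. MAPK3, the gene of ERK1, and PDPK1 had log2 fold changes of 0.36 ± 0.28 and 0.02 ± 0.26. Neither was called.

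Of 7 tested genes of the p38 arm, which feeds into MSK, 1 rose and 1 fell (28.6% called, against 22.3% of all genes). MAP2K6, a kinase that activates p38, fell from 16.7 to 19.8 CPM with glucose to 5.78 to 7.95 CPM without it (log2 fold change −1.45 ± 0.23, edgeR adjusted p = 0.00112). MAPK11, the gene of p38 beta, rose by 1.20 ± 0.39 on the log2 scale from a low level of 1.81 ± 0.525 CPM (adjusted p = 0.0435). That call was lost on leaving out any 1 library (adjusted p from 0.0619 to 0.156), with library totals (0.0535) and with a replicate block (0.0784). MAP3K7, the kinase TAK1, had 0.43 ± 0.20 (adjusted p = 0.136). None of the 5 other kinases activated by MAP kinases passed, with log2 fold changes of 0.32 ± 0.23 for MKNK2, −0.26 ± 0.20 for MAPKAPK5 and −0.23 ± 0.21 for MAPKAPK2. DESeq2 called 0 of the 5, and 0 had an unadjusted edgeR p under 0.05.

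Among 24 genes whose proteins RSK phosphorylates, 3 rose, 6 fell and 15 did not pass, with a median log2 fold change of 0.03. Of these 24, 37.5% were called, against 22.3% of all genes tested (11.6% higher and 10.7% lower). The difference between these shares was not tested. The transcription factor genes FOXO3 and CEBPB were among those that rose, by 0.93 ± 0.20 and 0.92 ± 0.20 on the log2 scale. Those that fell were CDC25A, CDC25B and CDC25C, phosphatases that activate cyclin-dependent kinases, PKMYT1, a kinase that restrains entry into mitosis, BUB1, a checkpoint kinase, and DAPK1, a death-associated kinase. CDKN1B, an inhibitor of cyclin-dependent kinases on the same list, had a log2 fold change of 0.10 ± 0.23 (edgeR adjusted p = 0.782). PKMYT1 fell with a log2 fold change of −1.93 ± 0.26 (adjusted p = 4.00e-04) and CDC25A with −1.83 ± 0.28 (adjusted p = 8.02e-04). DAPK1 was at −0.81 ± 0.22. RPS6, the substrate that named the family, had 3997 ± 1015 CPM with glucose and 4486 ± 643 CPM without it.

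None of 6 genes for MSK substrates passed, and H3-3A, HMGN1 and RELA had log2 fold changes of −0.50 ± 0.20, −0.56 ± 0.28 and −0.20 ± 0.18. CREB1 had 0.08 ± 0.19. By the edgeR quasi-likelihood test, 1 of these 6 genes (H3-3A) had an unadjusted p under 0.05, and DESeq2 called 0. Leaving out replicate 1 with glucose, 1 gene fell, HMGN1 (adjusted p = 0.0113). The immediate-early genes that MSK and CREB act on moved in both directions, with 2 of 12 higher, 2 lower and 8 that did not pass. The share called was 33.3%, against 22.3% of all genes tested. EGR1, a zinc finger factor, rose from 1.13 to 3.25 CPM with glucose to 6.16 to 9.03 CPM without it (log2 fold change 1.99 ± 0.39, adjusted p = 0.00399). FOS, a subunit of AP-1, rose by 2.23 ± 0.65, and the number higher was 1 on leaving out replicate 2 or 3 without glucose. It was close to the floor, with 3, 1 and 18 counts with glucose and 23, 45 and 48 without it. The nuclear receptor genes NR4A1 and NR4A3 fell with log2 fold changes of −2.18 ± 0.27 and −2.93 ± 0.52 (adjusted p = 2.65e-04 and 0.00209). NR4A1 was at 12.0 to 14.1 CPM with glucose and 2.21 to 3.22 CPM without it.

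**Figure D4:**
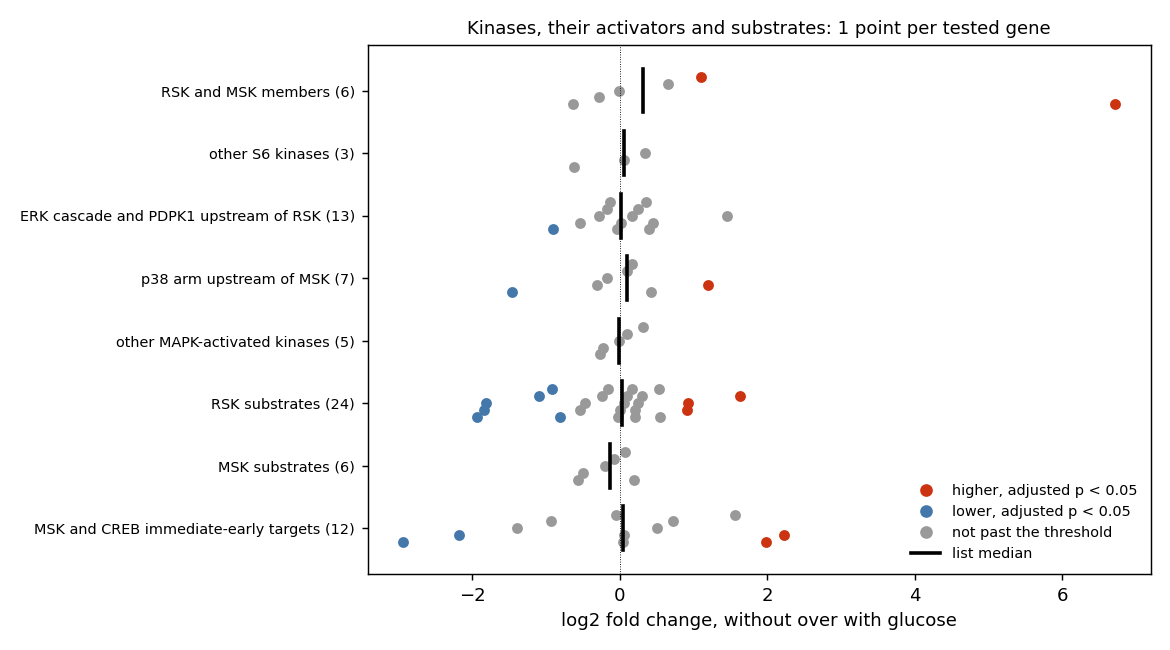
Log2 fold change (without over with glucose) of every tested gene of the kinase family and of 7 lists, 1 point per gene, with the list median as a black bar and the number of tested genes in brackets. The medians of the 7 lists lie between −0.14 and 0.11, and RPS6KA2 at 6.71 lies beyond every other point.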

How the data were processed

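Counts were deposited for 6 libraries of A549 cells, 3 with and 3 without glucose. Per the labels' protocols, barcoded oligo-dT primers started the cDNA, samples were pooled by a quantitative PCR of Actb, and the pool was amplified by PCR. No molecular identifiers are mentioned. The deposited values are raw counts of reads per Entrez gene that the authors obtained using STAR and HTSeq (hg19), per the submitters' processing notes. For the versions, annotation and strand setting, nothing is given in the sources used here. Symbols were matched through RefSeq (GRCh38.p14) for 19178 of 19240 genes. The 5 HTSeq summary lines stayed out of all totals. Reads in no gene made up 32.8% to 36.5% of a library, reads with several alignments 18.4% to 22.2% and ambiguous reads 0.369% to 0.418%.

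Differences between groups were fitted in edgeR 4.0.16 (R 4.3.3) by its two-sided quasi-likelihood F test, without covariates, after TMM scaling and filterByExpr (minimum count 10). P-values were adjusted over all genes kept (Benjamini-Hochberg), and an adjusted p under 0.05 passed. The SE was worked back from F (absolute log2 fold change over its square root) and is approximate. CPM were computed here from gene totals times TMM factors. The code was tested on simulated data, where the fit recovered 51% of 100 genes changed 2-fold and 95% of 100 changed 4-fold. A gene that did not pass may therefore still differ. The members and lists were chosen with earlier results of these data known. Named are the members, the 3 genes of each list with the smallest p (4 for the other S6 kinases) and the 2 genes nearest each member in pattern; other genes were chosen after their values were seen. Some genes that this rule names are not reported here. Alternatives were other scalings (size factors or library totals), DESeq2 1.42.0, no filter or a mean of 20 counts, a replicate block, and leaving out each library. Libraries of a group differed by more than sampling noise (chi-square over degrees of freedom 22.1 to 57.3), so none were merged in the fits. Counts were summed over a group only for the Poisson ratio of RPS6KA2 and where a gene's counts are given per group.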

Additional observations from a re-analysis of the deposited data

How the results depend on the processing

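The fitted direction of the members was the same under every alternative scaling, filter, tool and block, and on leaving out 1 library except for RPS6KA4 (log2 fold change −0.50 to 0.12) and RPS6KA5 (−0.34 to 0.30). Leaving out 1 library gave 1 to 2 members called higher and 0 called lower, and 860 to 1292 genes higher and 781 to 1232 lower in all, with the lowest numbers without replicate 2 with glucose (860 higher; 894 without replicate 3 with glucose) and replicate 3 without it (870 higher, 781 lower). Of the other named genes, RPS6KB1 (−0.086 to 0.61) and RPS6KC1 (−0.26 to 0.35) changed sign in this way. The 7 lists together had 4 to 6 genes higher and 9 to 11 lower. With a replicate block, 2 members were called, the log2 fold changes of RPS6KA2 and RPS6KA6 were 6.78 and 1.16, and 984 genes were higher and 911 lower in all. Same-numbered libraries did not deviate together (correlations of −0.23, −0.10 and 0.03 across genes), so the numbers were not taken to pair them. As a share of its own class rather than of all 6 genes, RPS6KA1 differed by −4.73 percentage points (without minus with glucose) and RPS6KA5 by 3.12, against −3.33 and −2.38. The difference in the RPS6KA3 share, 3.87 points of all 6 genes, was −3.24 within the RSK genes and −0.69 on leaving out replicate 1 with glucose. Depth limits RPS6KA2 with glucose, where 3 counts are 0.211 to 0.424 CPM, and RPS6KA1, RPS6KA5 and RPS6KA6, with 404, 597 and 536 counts over all libraries.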
